A study of Homo sapiens with 8 samples.

Results

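RAB genes were followed through total and Ago2-bound RNA of a Hodgkin lymphoma cell line with and without a sponge for the microRNA miR-155. A gene counted as a RAB gene when its official symbol was RAB, a number and at most 1 letter, so that effectors and interactors with longer symbols stayed out. Of 16557 genes with a symbol on the array, 58 were RAB genes (92 probes), and 43 of these (69 probes) had a probe that passed the filters, of 11203 genes in all. L1236 is an established Hodgkin lymphoma cell line with high miR-155. The control cells carried the empty pMSCV-PIG retroviral vector (EV) and the others a retroviral miR-155 sponge, which offers the microRNA repeated binding sites. Both populations were sorted for GFP and grown in the same medium. From each, RNA of the total lysate (T) and RNA precipitated with an antibody against Ago2 (IP) was hybridised, which gave 4 RNA samples, 1 per group. Each sample was labelled with Cy3 and with Cy5, and IP and T of one population shared an array, so that 4 two-colour Agilent arrays gave 8 channels. With 1 sample per group the design allows no test, and the values describe these samples. Every SD below is over 2 technical values (dye orientations for IP/T, dyes for differences in the T or the IP signal) and leaves out the spread between cultures and between precipitations.

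RABs are small GTPases that act as molecular switches on membranes. A guanine nucleotide exchange factor (GEF) loads the RAB with GTP, the GTP-bound form recruits effectors that move, tether or fuse vesicles, and a GTPase-activating protein (GAP) ends the signal, while prenylation anchors the protein in the membrane and GDI takes it off again. Each RAB marks its own compartments, and in B-lineage cells this traffic carries, among other cargo, immunoglobulin and antigen receptors. Ago2 holds microRNAs and, through them, the transcripts they pair with, so a high IP/T ratio means that a transcript was more abundant in the Ago2 precipitate than its share of total RNA.

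The sponge is aimed at miR-155. Both mature strands of its hairpin are shown because the comparisons of EV with sponge cells below rest on this sponge. Capitals mark the seed, bases 2 to 8, through which a microRNA recognises its sites (sequences from RefSeq, GRCh38.p14, plus strand).
hsa-miR-155-5p, chr21:25573983-25574006: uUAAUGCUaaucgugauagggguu
hsa-miR-155-3p, chr21:25574022-25574043: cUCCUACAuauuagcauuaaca
The 5p strand is the main guide strand of this hairpin. Sites for it in RAB transcripts were not analysed here. The paper saw no clear loss of miR-155 targets from the Ago2 fraction of Hodgkin cells carrying the sponge. In L1236 it reports a mild decrease in IP enrichment for most of its selected targets expressed there. It proposes that part of the abundant miR-155 stayed free. How much miR-155 the sponge bound was not measured here, so small changes below do not describe cells without miR-155.

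The share of spots well above background was 61.0% to 65.7% in 7 channels and 54.1% in the Cy5 channel of sponge T, the lowest of the 8. All 8 Hodgkin cell markers examined, TNFRSF8 (CD30) and MIR155HG among them, were kept and were above background in every T channel. Of 6 B-cell genes, MS4A1 and CD22 were above background in no T channel and the other 4 were kept. Of 7 markers of other cells, CD3D, LYZ, HBB and EPCAM were above background in no T channel. CD14 was kept, and CD3E and CD8A were above background in all 4 T channels but did not pass the dye filter.

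The remaining RAB genes were left without a value. Detection removed 11 of them, RAB3B, RAB3D, RAB7B, RAB9B, RAB17, RAB25, RAB31, RAB32, RAB37, RAB38 and RAB42. Of these, 9 were above background in no channel, and RAB7B and RAB31 in 1. RAB25, best known from epithelia, and RAB38, of melanosomes, were in this group. Of 11 secretion RABs on the array 7 were kept, RAB3A, RAB3C and RAB26 among them. The dye filter removed the other 4 RAB genes without a value, RAB27B, RAB34, RAB36 and RAB39A, which come from more than 1 role group. These were detected in 6 to 8 channels but their Cy3 and Cy5 signals differed by more than 2-fold in at least 1 sample. RAB39A, for which the log2 IP/T was 2.78 ± 1.12 (SD over 2 orientations) in EV and 1.34 in sponge cells, had the largest ratio among them in EV cells. Of the 43 genes that stayed, 40 were above background in all 8 channels, the exceptions being RAB20 (5 channels), RAB23 (7) and RAB40B (7).

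In EV cells, 11 of the 43 RAB genes had an IP/T ratio of 2 or more, the study's criterion for the targetome, which 18.1% of all genes met and 25.6% of the RAB genes. They were RAB1A, RAB2A, RAB2B, RAB4B, RAB5B, RAB12, RAB13, RAB14, RAB22A, RAB23 and RAB30. Only RAB18, RAB26 and RAB40A were at least 2-fold higher in T, which is 6.98% of the members against 18.8% of all genes. The median log2 IP/T was 0.48 ± 0.15 over the RAB genes and -0.16 over all genes. A ratio above 1 was found for 29 of the 43, against 44.1% of all genes. These shares are descriptions of 1 sample per group. Signals taken from raw intensities with normexp background correction gave 11 genes at 2-fold or more in IP and 1 in T after loess, and 8 and 1 after quantile normalisation, in place of 11 and 3. The all-gene median was then -0.01 after loess and -0.05 after quantile normalisation. Shares of all genes past 2-fold under these settings are not given here.

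**Figure D1:**
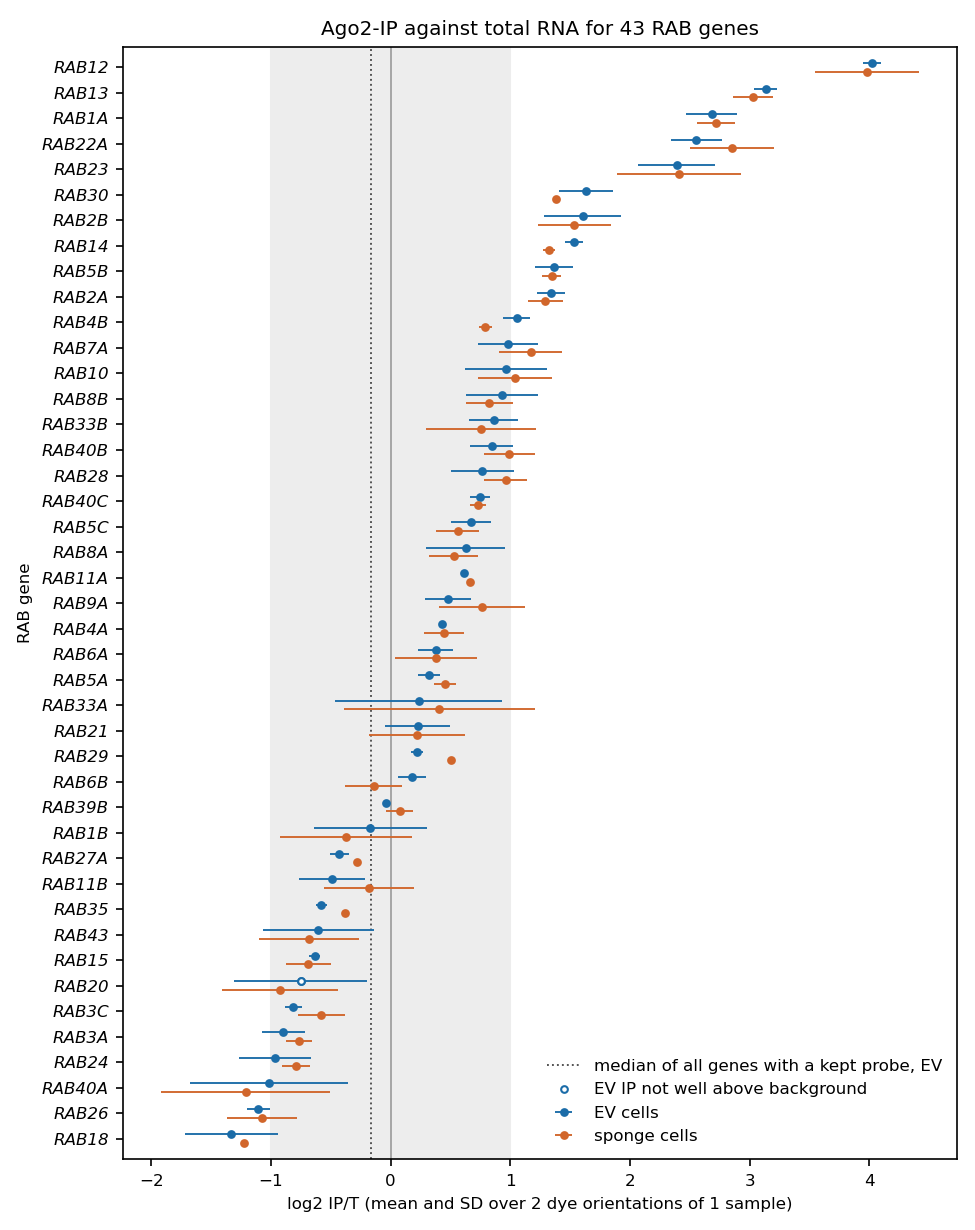
Log2 IP/T of the 43 RAB genes with a kept probe (rows, sorted by EV cells), in EV cells (blue) and sponge cells (orange). Points are means and bars SDs over 2 dye orientations of 1 sample; the grey band spans less than 2-fold and the dotted line is the median of all genes in EV cells (-0.16). RAB12 stands at 4.02 and RAB18 at -1.33, and the blue and orange points of every gene differ by less than 0.32. The open blue point is RAB20, whose IP signal in EV cells was not well above background.

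The recycling RABs, grouped for roles around endosomal recycling, held 4 of the 11 genes past 2-fold in IP, out of 9 kept. This was 44.4%, against 18.1% of all genes, and the median log2 IP/T was 0.61. The groups by compartment held 3 to 13 kept genes and were not compared with each other. RAB12, which steers transferrin receptor traffic and is a substrate of the kinase LRRK2, had normalised log2 signals of 9.91 (Cy3) and 9.80 (Cy5) in T and 13.88 and 13.88 in IP of EV cells. In sponge cells its signals were 9.93 and 9.21 in T and 13.50 and 13.61 in IP. All 4 IP channels were thus far above all 4 T channels, and its ratio of 16.3 in EV cells (log2 4.02 ± 0.08) was the highest of the 43. RAB13, a regulator of junctions and surface delivery, had T signals of 11.82 and 12.01 and IP signals of 15.07 and 15.02 in EV cells, with 12.00, 12.32, 15.23 and 15.15 in the same order in sponge cells. Its log2 ratio was 3.13 ± 0.10, a ratio of 8.78, and its IP channels were likewise all above its T channels. RAB14, of endosome and Golgi traffic, had 11.63 and 11.57 in T and 13.16 and 13.11 in IP of EV cells, and 11.68, 11.61, 12.97 and 12.98 in sponge cells, a log2 ratio of 1.53 ± 0.07 in EV cells. RAB4B, of rapid recycling, was close to the threshold, with 10.07 and 10.23 in T and 11.21 and 11.21 in IP of EV cells and 10.30, 10.20, 11.03 and 11.05 in sponge cells. Its log2 ratio was 1.05 ± 0.12 in EV and 0.79 ± 0.06 in sponge cells, so it met the criterion in the first population alone, and it was below 2-fold in EV cells under normexp correction (0.75 with loess and 0.57 with quantile normalisation). RAB4A, RAB11A, RAB11B, RAB15 and RAB35 lay between -0.63 and 0.61. Slow recycling is the role of RAB11A and RAB11B, and RAB35 acts in endosomal recycling and cytokinesis.

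Of 13 kept RABs of the ER and Golgi, 4 were past 2-fold in IP and 1 in T, with a group median of 0.23. These shares were 30.8% and 7.69%, against 18.1% and 18.8% of all genes. RAB1A, which directs vesicles from the ER to the Golgi, had T signals of 11.70 and 11.89 and IP signals of 14.42 and 14.54 in EV cells. In sponge cells the values were 11.71, 11.93, 14.54 and 14.54. The IP channels were all higher, by 2.68 ± 0.21 on the log2 scale in EV cells, a ratio of 6.42. Both RAB2 genes, which act between Golgi and ER and in autophagy, were past 2-fold. RAB2A had 12.53 and 12.38 in T and 13.80 and 13.79 in IP of EV cells, and 12.42, 12.28, 13.67 and 13.61 in sponge cells (log2 ratio 1.34 ± 0.11 in EV cells). RAB2B had 9.01, 8.72, 10.55 and 10.38 in EV cells and 8.82, 8.45, 10.20 and 10.14 in sponge cells (1.60 ± 0.32, and 0.80 with normexp correction and quantile normalisation). RAB30, another Golgi RAB, had 9.31, 9.18, 10.98 and 10.78 in EV cells and 9.19, 9.57, 10.93 and 10.58 in sponge cells (1.64 ± 0.23). For these genes no T channel reached the level of any IP channel of the same gene. The opposite order was seen for RAB18, a RAB of lipid droplets and the ER, at the probe that stands for the gene. Its T signals were 14.69 and 14.71 and its IP signals 13.11 and 13.63 in EV cells, with 14.66, 14.33, 13.11 and 13.43 in sponge cells, with an EV ratio of -1.33 ± 0.39 on the log2 scale. A second RAB18 probe gave 2.56 ± 0.17, so the direction for this gene depends on the probe. The other 8 genes, RAB1B, RAB6A, RAB6B, RAB29, RAB33A, RAB33B, RAB39B and RAB43, lay between -0.60 and 0.86.

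Among 6 kept early endosome RABs (median 0.50), RAB5B and RAB22A were past 2-fold in IP (33.3%, against 18.1% of all genes). RAB22A, which sorts cargo in early endosomes, had T signals of 11.34 and 11.18 and IP signals of 13.88 and 13.75 in EV cells, and 11.34, 11.05, 14.15 and 13.95 in sponge cells. Its log2 ratio was 2.56 ± 0.21 in EV and 2.85 ± 0.35 in sponge cells, with IP above T in every channel. RAB5B, one of the 3 RAB5 genes that control early endosome fusion, had 10.17, 10.24, 11.49 and 11.65 in EV cells and 10.23, 10.53, 11.82 and 11.63 in sponge cells, a log2 ratio of 1.37 ± 0.16 in EV cells. RAB5A, RAB5C and RAB21, the last known from integrin traffic, lay between 0.23 and 0.67. RAB20, a RAB of endosomes and phagosomes, was not well above background in IP of EV cells, so its ratio there has no exact value, and it is described with the changes between populations.

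The cilium and ubiquitin ligase RABs, 5 kept genes with a median of 0.77, held 1 gene in each direction. Each was 20% of the group, against 18.1% of all genes in IP and 18.8% in T. RAB23, a negative regulator of Hedgehog signalling, had T signals of 7.79 and 7.56 and IP signals of 10.18 and 9.95 in EV cells, and 7.64, 7.21, 9.99 and 9.69 in sponge cells. The log2 ratio was 2.39 ± 0.32, and with normexp correction and quantile normalisation it was 0.85, below 2-fold. RAB40A, whose SOCS box links it to a cullin ubiquitin ligase, had 8.05 and 8.59 in T and 7.10 and 7.50 in IP of EV cells, and 7.99, 8.85, 7.14 and 7.27 in sponge cells. Its log2 IP/T of -1.02 ± 0.66 had the widest SD among the called genes, with -0.55 in one orientation and -1.49 in the other, and with normexp correction it was below 2-fold (-0.32 with loess and -0.25 with quantile normalisation). RAB28, RAB40B and RAB40C lay between 0.75 and 0.84.

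None of the 3 kept RABs of late endosomes, lysosomes and autophagy, and none of the 7 of secretion, was past 2-fold in IP of EV cells. Over all genes the share was 18.1%, and groups this small were not compared. RAB7A, which drives fusion of late endosomes with lysosomes, had T signals of 13.14 and 12.88 and IP signals of 14.04 and 13.95 in EV cells, and 13.14, 12.73, 14.09 and 14.13 in sponge cells, just under the threshold in EV cells (0.98 ± 0.25) and above it in sponge cells (1.17 ± 0.26). RAB10, of insulin-regulated and basolateral delivery, behaved likewise, with 13.31, 13.10, 14.31 and 14.03 in EV cells (0.97 ± 0.34) and 13.21, 12.82, 14.08 and 14.03 in sponge cells (1.04 ± 0.31). In EV cells RAB4B, RAB7A and RAB10 were all within their SD of the threshold. RAB9A, of transport from late endosomes to the Golgi, was at 0.48 ± 0.20, and RAB24, an autophagy RAB, at -0.96 ± 0.30, with 13.10 and 12.84 in T and 12.09 and 11.92 in IP of EV cells and 13.06, 12.82, 12.12 and 12.19 in sponge cells. The 7 secretion RABs had a negative median (-0.43). RAB26, linked to secretory granules, had 10.29 and 10.29 in T and 9.11 and 9.26 in IP of EV cells and 9.97, 10.50, 9.22 and 9.11 in sponge cells (log2 IP/T -1.11 ± 0.10 in EV cells). With normexp correction RAB26 was below 2-fold (-0.46 with loess and -0.55 with quantile normalisation). The synaptic vesicle RABs stood close to it. RAB3A had 11.05, 10.89, 10.12 and 10.02 in EV cells and 11.21, 11.03, 10.34 and 10.37 in sponge cells (-0.90 ± 0.18 in EV cells), and RAB3C was at -0.81 ± 0.07. RAB27A, which docks lytic granules and exosomes, was at -0.43, and RAB8A and RAB8B, of surface and cilium delivery, at 0.63 and 0.93.

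**Figure D2:**
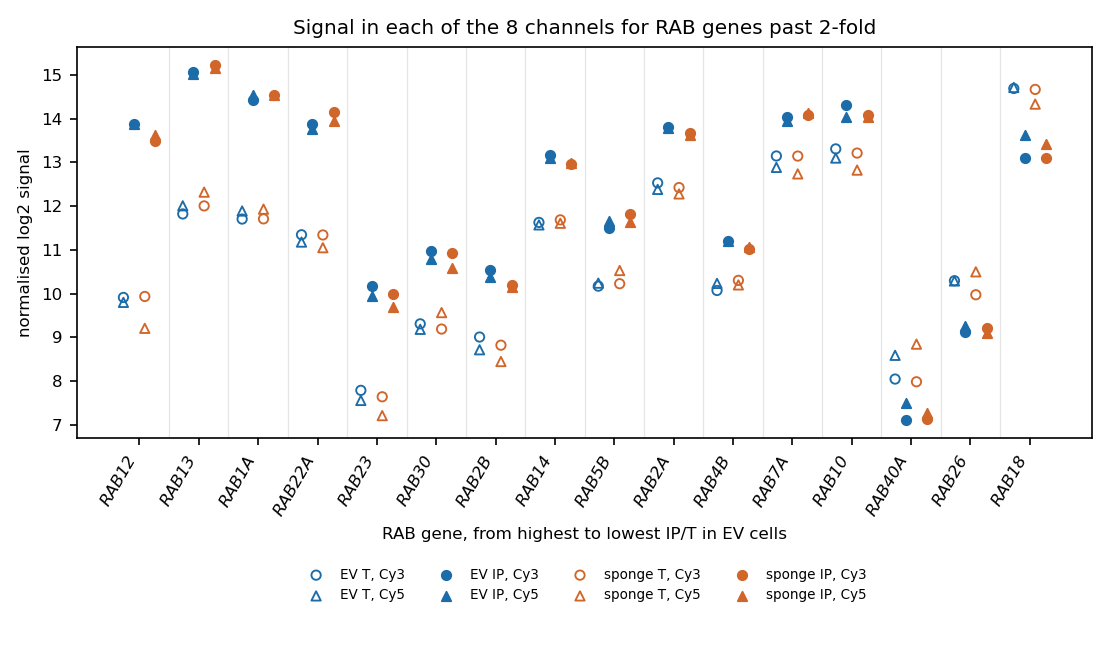
Normalised log2 signal (vertical axis) in each of the 8 channels for the 16 RAB genes past 2-fold between IP and T in either population, ordered by IP/T in EV cells. Open symbols are T and filled symbols IP, blue EV and orange sponge, circles Cy3 and triangles Cy5. Filled symbols lie above open ones for the first 13 genes and below them for RAB40A, RAB26 and RAB18; heights are compared within a gene.

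Close relatives did not always share a ratio. Among 14 pairs of kept genes from 10 RAB subfamilies, 5 pairs differed by 2-fold or more in EV cells at the probes that stand for the genes. The median difference was 0.62 on the log2 scale. Over all genes the SD of log2 IP/T in EV cells was 1.17 (1.20 over the RAB genes), and unrelated pairs were not compared. In EV cells the differences of RAB1A and RAB1B (6 combinations of kept probes) and of RAB11A and RAB11B (2) were past 2-fold at every combination. The pairs with RAB40A have 1 combination each, so their probes allow no such check. RAB1A and RAB1B, which act at the same step, were furthest apart, with log2 IP/T of 2.68 and -0.17, a difference of 2.85 ± 0.26 in EV and 3.09 ± 0.40 in sponge cells. RAB1B had 12.70 and 12.86 in T and 12.36 and 12.86 in IP of EV cells, so its channels overlapped where those of RAB1A did not. RAB40A was 1.86 ± 0.48 below RAB40B and 1.77 ± 0.58 below RAB40C, while RAB40B and RAB40C differed by 0.09 ± 0.10. RAB11A was 1.10 ± 0.29 above RAB11B, and RAB5B was above RAB5A (-1.04 ± 0.06 for RAB5A minus RAB5B). In sponge cells RAB11A minus RAB11B was 0.84 ± 0.38 and RAB5A minus RAB5B -0.89 ± 0.01, both short of 2-fold. The pairs with RAB40A stayed past 2-fold there (-2.20 ± 0.92 for RAB40A minus RAB40B, -1.94 ± 0.64 for RAB40A minus RAB40C). In EV cells the second RAB5A probe, at 1.07, was only 0.29 below RAB5B, so the gap between RAB5A and RAB5B depends on the probe. RAB5A and RAB5C (-0.35 ± 0.07), RAB2A and RAB2B (-0.26 ± 0.21) and RAB3A and RAB3C (-0.09 ± 0.25) were closer in EV cells. RAB6A and RAB6B differed by 0.20 ± 0.03 at the probes that stand for them, but their other kept probes were at 1.17 and -1.10, a difference of 2.27. Relatives this alike in sequence can share signal on an array, and the probe sequences were not used here.

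Different probes of one RAB gene also gave different ratios. Of 24 RAB genes with several kept probes, 4 had probes whose IP/T differed by 2-fold or more (16.7%, against 16.4% of 3458 genes with several kept probes). There were 9 with probes on both sides of the threshold of 2, a count that was not made over all genes. The largest range was that of RAB18 (-1.33 and 2.56), followed by RAB22A (2.56 and 0.31), RAB39B (-0.04 and 1.85) and RAB6B (0.18 and -1.10). In sponge cells the same 4 ranges were 3.76, 2.14, 1.84 and 1.08, so the gap between probes came back in the other population. RAB1A (2.29 to 2.69 over 3 probes), RAB4B (1.01 and 1.05), RAB12 (4.02 and 4.54) and RAB14 (1.53 at both) were past 2-fold at every probe. With the probe of highest IP/T in place of the brightest one, 19 RAB genes were past 2-fold in EV cells and 20 in sponge cells. This choice can only raise the ratio in EV cells of any gene with several probes, and the median of all genes there was -0.07. The share of all genes past 2-fold under it is not given here.

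**Figure D3:**
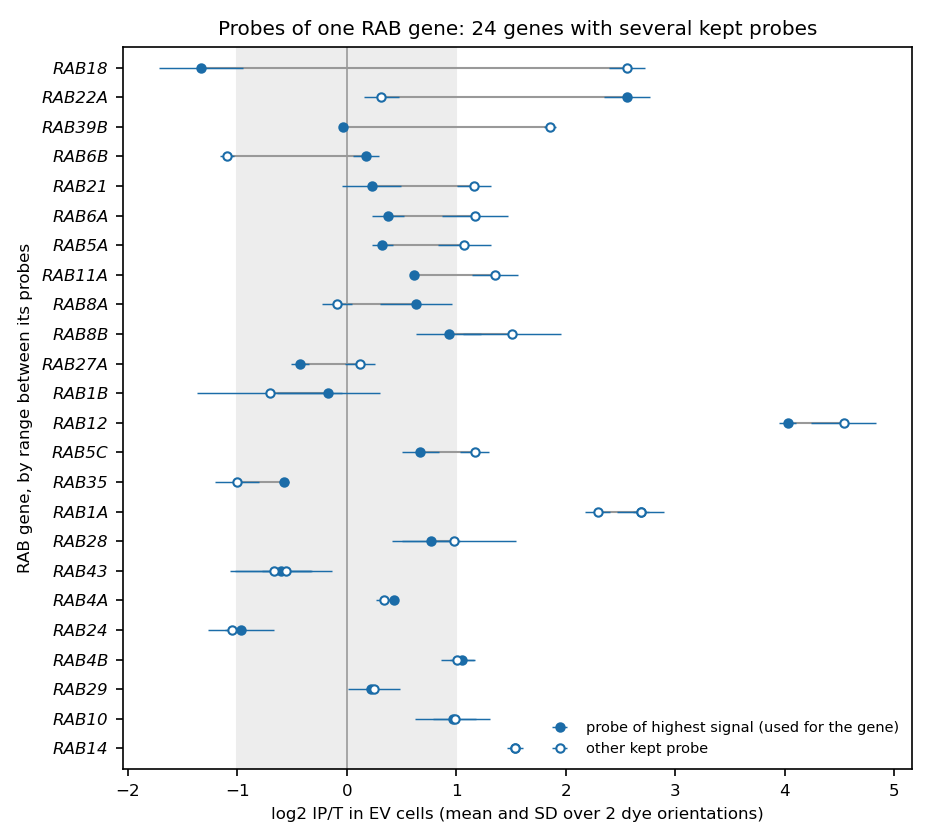
Log2 IP/T in EV cells of each kept probe for the 24 RAB genes with several, sorted by the range between probes. Filled circles are the probe of highest signal, open circles the others, bars SDs over 2 dye orientations, and the grey band spans less than 2-fold. Probes of RAB18, RAB22A, RAB39B and RAB6B lie furthest apart, while the 2 probes of RAB14 coincide at 1.53.

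Ratios in sponge cells were close to those in EV cells. IP/T was 2 or more for 12 RAB genes (27.9%, against 17.7% of all genes), of which 10 were among the 11 of EV cells, with RAB4B out and RAB7A and RAB10 in. RAB18, RAB26 and RAB40A were again at least 2-fold higher in T (6.98%, against 17.4% of all genes). Across the 43 genes the ratios of the populations correlated with Pearson's r = 0.991 (0.981 across all genes), a description across genes of samples that share their array design. The median change in log2 IP/T from EV to sponge cells was 0.01 ± 0.07, equal to that of all genes (0.01). None of the 43 had a change of 0.32 or more on the log2 scale with one sign in both orientations, against 6.49% of all genes upwards and 5.49% downwards. No RAB gene was past 2-fold in this change, which 0.232% of all genes were. RAB6B came nearest, with log2 IP/T of 0.18 ± 0.12 in EV and -0.14 ± 0.24 in sponge cells, a change of -0.32 ± 0.12. Next among those lower in sponge cells in both orientations were RAB4B (-0.26 ± 0.17), RAB30 (-0.26 ± 0.25), RAB14 (-0.21 ± 0.02) and RAB1B (-0.20 ± 0.08). Higher in sponge cells in both orientations were RAB22A (0.30 ± 0.14), RAB9A (0.28 ± 0.16), RAB29 (0.28 ± 0.06), RAB3C (0.24 ± 0.27) and RAB35 (0.20 ± 0.03). At the other kept probe the change was -0.13 for RAB6B, -0.05 for RAB4B, -0.08 for RAB14 and 0.12 for RAB1B. It was 0.40 for RAB22A, 0.25 for RAB29 and 0.14 for RAB35. RAB11B had the highest mean change (0.31 ± 0.65), but its orientations gave 0.77 and -0.15. The changes of the 2 orientations did not correlate across the 43 genes (r = -0.07), while across all genes r was 0.31. The SD of the changes over the 43 genes was 0.16, and that of the difference between orientations divided by 2 was 0.18.

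Total RNA of the RAB genes also differed little between the populations. The median change in T was -0.04 ± 0.02 on the log2 scale (all genes -0.01), and 29 of 43 genes had one sign in both dyes. In bulk RNA, fewer cells with a transcript and less of it per cell cannot be told apart. The lower of the 2 thresholds for a change between populations was a mean of 0.32 on the log2 scale with one sign in both dyes. By it T was higher in sponge cells for RAB20 alone (5.32% of all genes) and lower for RAB29 and RAB40B (4.81% of all genes). RAB29, a Golgi RAB that recruits LRRK2, had T signals of 9.79 (Cy3) and 9.84 (Cy5) in EV and 9.34 and 9.56 in sponge cells, a change of -0.36 ± 0.12, with -0.45 in Cy3 and -0.28 in Cy5. Its IP signals were 10.03 and 10.05 in EV and 10.07 and 9.84 in sponge cells, a change of -0.08 ± 0.18, smaller than its SD. At the other kept RAB29 probe the change in T was -0.20 ± 0.04, short of 0.32. RAB40B had T signals of 6.96 and 7.16 in EV and 6.63 and 6.45 in sponge cells (-0.52 ± 0.28), with -0.33 in Cy3 and -0.72 in Cy5, where sponge T had the fewest spots above background; the part of that channel was not tested. With normexp correction and loess the change was -0.17 for RAB29 and -0.08 for RAB40B, both short of 0.32. Past 2-fold was RAB20 alone (0.312% of all genes), a gene that passed the detection filter only through its channels in sponge cells.

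No other gene reached 0.32 in T. The genes with the largest differences were taken from those above background in all 4 T channels and with one sign in both dyes, which left out RAB12 (-0.29 ± 0.44), RAB23 (-0.25 ± 0.14, above background in 3 of 4 T channels) and RAB11B (-0.21 ± 0.55) on the low side and RAB1B (0.20 ± 0.42) and RAB6A (0.14 ± 0.24) on the high side. RAB15, a RAB of recycling endosomes, had 10.13 and 10.07 in EV and 9.71 and 9.97 in sponge cells (-0.26 ± 0.23). RAB2B (-0.23 ± 0.06), RAB18 (-0.20 ± 0.25) and RAB9A (-0.19 ± 0.22) followed, and the differences of RAB15 and RAB2B were larger than their SDs. In the other direction were RAB13 (0.25 ± 0.09), RAB5C (0.22 ± 0.08), RAB5B (0.17 ± 0.16), RAB3A (0.15 ± 0.01) and RAB8A (0.14 ± 0.18). At the other kept probe the change in T was -0.02 ± 0.03 for RAB5C, -0.12 ± 0.03 for RAB8A and -0.18 ± 0.09 for RAB18. The SDs over dyes leave out this spread between probes.

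In the Ago2 precipitate the median change was 0.00 ± 0.02 (all genes 0.00). By a mean of 0.32 on the log2 scale with one sign in both dyes, IP was lower in sponge cells for RAB6B, RAB12 and RAB40B (4.15% of all genes), each of which was short of 0.32 in one of the dyes. Of the 42 RAB genes with a signal above background in every sample, 0 were higher by this measure, which 4.59% of all genes were, and 0 were past 2-fold (0.152% of all genes). The other gene, RAB20, has only a bound in IP. RAB12, the most Ago2-enriched RAB gene, had 13.88 and 13.88 in IP of EV and 13.50 and 13.61 in IP of sponge cells (-0.32 ± 0.08). Its T signal differed by -0.29 ± 0.44, with 0.02 in Cy3 and -0.59 in Cy5, so that its IP/T was 4.02 in EV and 3.98 in sponge cells. RAB6B, a Golgi RAB abundant in neurons, had IP signals of 9.66 and 9.72 in EV and 9.30 and 9.43 in sponge cells (-0.33 ± 0.04), and its T signal differed by -0.01 ± 0.16. RAB40B had 7.88 and 7.93 in EV and 7.59 and 7.47 in sponge cells (-0.37 ± 0.12). With normexp correction and loess these changes were -0.25, -0.20 and -0.12. RAB15 (-0.31 ± 0.01) and RAB2B (-0.29 ± 0.08) stood just short of this threshold. The genes highest in sponge cells among the 42 were RAB3A (0.28 ± 0.09), RAB27A (0.25 ± 0.03), RAB33A (0.25 ± 0.01), RAB22A (0.23 ± 0.05) and RAB3C (0.20 ± 0.02), none of which reached it. At the other kept probe the change in IP was -0.03 ± 0.11 for RAB27A and 0.04 ± 0.09 for RAB22A. For RAB12 it was -0.42 ± 0.01 and for RAB6B -0.42 ± 0.23.

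RAB20 was the dimmest of the genes with a change and has a bound in place of a level in IP of EV cells. Its T signals were 6.01 (Cy3) and 5.04 (Cy5) in EV and 6.67 and 6.82 in sponge cells, a change of 1.22 ± 0.78. In IP they were 4.68 and 4.86 in EV and 5.55 and 6.09 in sponge cells. The EV IP signals were not well above background in either dye, and 1 of the 2 EV T signals was. In sponge cells T and IP were well above background in both dyes. RAB20 thus passed the detection filter only through the population where it is higher, so its changes are no support for a difference. Measured against the lowest signal that was well above background, IP of sponge cells was at least 1.06-fold higher than IP of EV cells, short of both thresholds. The change in T was 0.27 with normexp correction and loess, also short of 0.32. All channels of RAB20 in sponge cells were above those in EV cells for the same RNA.

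**Figure D4:**
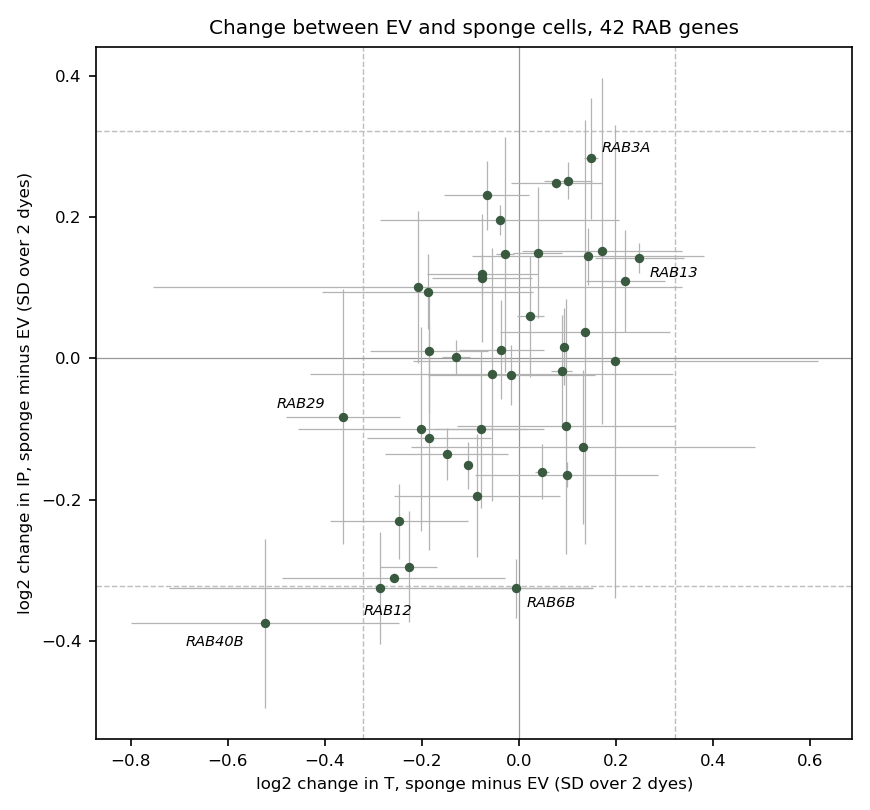
Log2 change from EV to sponge cells in T (horizontal) and in IP (vertical) for the 42 RAB genes with a signal above background in every sample, with SDs over 2 dyes of 1 sample. Dashed lines mark a change of 0.32. RAB40B (-0.52 and -0.37) lies furthest from the centre, and 38 genes are inside the dashed lines on both axes. RAB20, which has only a bound in IP, is not drawn.

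Genes for the proteins that load, switch off, anchor and read RABs had a median ratio near that of all genes. Of 144 such factors listed, 115 had a kept probe, and their median in EV cells was -0.13 on the log2 scale, with 20 past 2-fold in IP and 25 in T (17.4% and 21.7%, against 18.1% and 18.8% of all genes). Among 33 RAB GEFs, 4 were past 2-fold in IP and 7 in T (12.1% and 21.2%), with DENND6A (1.87 ± 0.22), which activates RAB14, and TRAPPC1 (1.82 ± 0.02), a subunit of the tethering complex that activates RAB1, at the top and HPS1 (-1.45 ± 0.10), of the complex that activates RAB32 and RAB38, at the bottom. Among 29 GAPs the counts were 6 and 5 (20.7% and 17.2%), led by TBC1D20 (2.79 ± 0.41), a GAP of RAB1. Among 43 effectors they were 9 and 11 (20.9% and 25.6%), with the highest ratios at RUFY2 (3.57 ± 0.36), the RAB11 effector RAB11FIP2 (3.13 ± 0.29) and the RAB5 effector APPL2 (2.58 ± 0.02), and low ones at the RAB13 effector MICALL2 (-1.71 ± 0.30) and the RAB27A effector MLPH (-1.66 ± 0.03). APPL2 was above background in 3 of the 4 T channels, and its ratio in sponge cells was 2.90 ± 0.71. Of 10 prenylation and recycling factors, CHM, the escort protein that presents RABs for prenylation, was past 2-fold in IP (2.44 ± 0.22) and RABAC1 (-1.52 ± 0.05) and RABGGTA (-1.32 ± 0.18) in T.

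The 2 other families of small GTPases described gave medians above that of the RAB genes. The ARF and ARL family had a median of 0.74 ± 0.19 over 22 genes, 8 past 2-fold in IP (36.4%) and 1 in T (4.55%), and the RAS family 0.63 ± 0.23 over 22 genes, 8 (36.4%) and 3 (13.6%). Over all genes these shares were 18.1% and 18.8%. Between EV and sponge cells, the largest change in IP/T among the RAB-related factors was that of the RAB5 GEF RIN2 (1.05 ± 0.01), for which T differed by -1.12 ± 0.50 and 3 of the 4 T channels were above background.

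**Figure D5:**
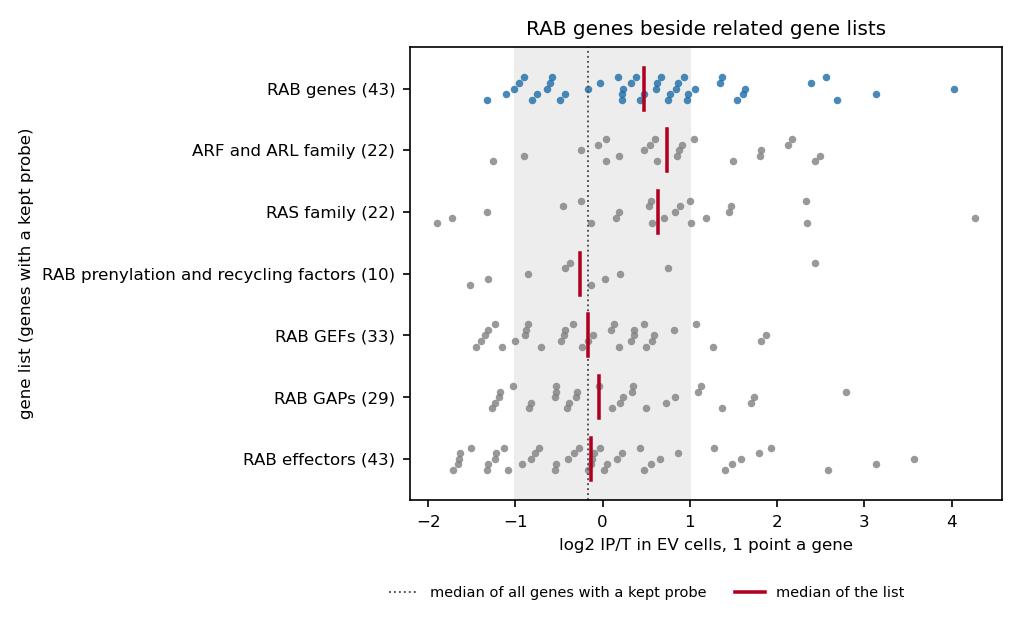
Log2 IP/T in EV cells (horizontal) of each gene with a kept probe in 7 lists (rows, number of genes in brackets). Red bars are list medians, the dotted line the median of all genes (-0.16) and the grey band less than 2-fold; vertical scatter within a row has no meaning. Medians of the RAB (0.48), ARF and ARL (0.74) and RAS (0.63) lists lie to the right of the dotted line and those of RAB GEFs and effectors near it.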

How the data were processed

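The authors extracted spot intensity values with Agilent Feature Extraction (10.7.3.1 in the file headers, 10.5.1.1 in the submitters' processing notes) and, per the methods, quantile normalised them in GeneSpring and averaged Cy3 and Cy5. The deposited series table holds their log2 values for 22282 probes. It includes all 69 kept RAB probes, and its columns lay a median of 0.00302 or less (log2) from the normalised signals below. Here, log2 processed intensity was quantile normalised over 8 channels (limma 3.58.1, R 4.3.3), without control spots and spots flagged as outliers, and spots of a probe were averaged. Quantile normalisation gives IP and T one distribution, so ratios are relative and not RNA yields. Of 41000 probes, 25827 were well above background in at least 4 of 8 channels and 22470 also had Cy3 and Cy5 within 2-fold in each RNA sample. Of the 41000, 23958 were named through RefSeq transcripts (GRCh38.p14). No kept probe was saturated. Among kept probes of a gene, the brightest on average stands for it. All 4 arrays lie on 1 slide. The steps were tested on simulated data. Values were described for all members, and by channel for those past 2-fold or with the largest changes. The IgG precipitation was not used here. Members and lists were chosen with earlier results of these data known. A further list of small GTPase genes was left out and is not reported here.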

Additional observations from a re-analysis of the deposited data

How the results depend on the processing

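Each median and count was recomputed under 14 alternatives, and 148 recomputed values stayed within the error of the value reported or within 1.5 times its count, 60 moved further and 2, both of the median change in T, turned from a value larger than its error. The median changes in IP and in IP/T, which were smaller than their errors, had the other sign under 6 and 2 alternatives. The signs of the median IP/T of the RAB genes held under all 14 in both populations. Its distance from the median of all genes in EV cells, 0.64 on the log2 scale, was 0.40 with normexp and loess, 0.32 with normexp and quantile, and 1.05 with the probe of highest IP/T. RAB1A, RAB2A, RAB5B, RAB12, RAB13, RAB14, RAB22A and RAB30 were at 2-fold or more in IP of EV cells under every alternative that kept them. For RAB22A no alternative used its other kept probe alone, which was at 0.31 and thus below 2-fold. With normexp and loess, which move the all-gene median of EV IP/T to -0.01, the median IP/T in sponge cells was 0.35, the change in T turned to 0.0341 and that in IP to -0.0331, 1 gene was 2-fold higher in T than in IP, and between populations 0 genes were lower in T, 1 in IP and 2 in IP/T. With normexp and quantile, the medians of IP/T were 0.27 (EV) and 0.29 (sponge), the change in T turned to 0.000897, 1 gene was 2-fold higher in T than in IP, and between populations 0 were higher in IP, 0 lower in T and 1 lower in IP. Scaling on the 75th percentile gave a median change in T of -0.0166. Requiring all 8 channels removed RAB20 (0 higher in T, 0 in IP) and left 1 lower in T. Requiring 1 channel gave 1 gene higher in IP/T. Without the dye filter 3 were higher in T, 3 higher in IP, 1 higher and 1 lower in IP/T, and with a 1.5-fold dye filter 0 were higher in T and 0 in IP. Shares of all genes past a threshold under the alternatives are not given here, so the counts in this paragraph have no background beside them. In single dyes or orientations the requirement of one sign falls away, for all genes as for the RAB genes. Cy3 alone gave a median change in T of -0.00233 and in IP of 0.0246, with 4 genes lower in T, 2 higher in IP, and 4 higher and 4 lower in IP/T. Cy5 alone gave 3 higher and 5 lower in T, 2 higher and 1 lower in IP, and 6 higher and 5 lower in IP/T. Arrays with IP in Cy5 gave 5 genes 2-fold higher in T than in IP, a median change in T of -0.00233, 4 lower in T, 2 higher and 1 lower in IP, and 2 higher and 2 lower in IP/T. Those with IP in Cy3 gave a median IP/T of 0.67 in sponge cells and a median change in IP of 0.0246, 3 higher and 5 lower in T, 2 higher in IP, and 6 higher and 2 lower in IP/T. The probe of highest IP/T gave medians of 0.98 and 0.89, a median change in T of -0.0599, 19 and 20 genes past 2-fold in IP and 1 lower in T. The mean over probes gave 0.75, 0.76 and -0.0563, with 1 lower in T and 1 higher in IP/T. RAB18 turned to 2.56 with the probe of highest IP/T and 0.61 with the mean over probes, since its probes disagree. Beyond these constructions the cause of a shift was not tested. Dim genes have the least precision, RAB20 above all, which is the 1 gene counted at its measured value as higher in IP. The groups share no replicate numbers beyond the dye labels, so no paired analysis was possible because each group holds 1 sample.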
